A study of Mus musculus with 9 samples.

Results

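Fatty acid oxidation was followed through 10 genes in 9 clones of the E14 line of mouse embryonic stem cells: the carnitine palmitoyltransferase genes Cpt1a, Cpt1b, Cpt1c and Cpt2, the acyl-CoA dehydrogenase genes Acadl, Acadm and Acadvl, the trifunctional protein genes Hadha and Hadhb, and the electron transfer gene Etfb. They were chosen by name, as enzymes of the pathway, out of 35580 genes in the tables, and all 10 had a mean of at least 1 CPM (estimated counts scaled to the effective library size), as did 13378 genes in all. The clones had been picked from the bulk line for differing lipid droplet size and were grown with foetal bovine serum and leukaemia inhibitory factor on gelatin, with no allele or drug that sets them apart in the labels. Each is 1 clone with 1 mRNA library, and the labels used here do not tie a clone to a droplet size, so levels are given clone by clone and no groups were formed. All 8 markers of embryonic stem cells on the list used here reached 1 CPM, with a summed level of 3409 CPM (clone 11) to 5585 CPM (clone 4). The libraries held 10783718 to 14309662 estimated counts.

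Fatty acids enter the mitochondrion as carnitine esters. CPT1 on the outer membrane makes the ester and is blocked by malonyl-CoA, the product of acetyl-CoA carboxylase, so that synthesis and oxidation do not run together. CPT2 on the inner membrane restores the acyl-CoA, an acyl-CoA dehydrogenase matched to the chain length opens each round of beta-oxidation, and the trifunctional protein carries long chains through the remaining steps. The dehydrogenases hand their electrons to electron transfer flavoprotein, which passes them on to the respiratory chain.

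The members differed widely in how much they varied between clones. Cpt1b, Acadvl, Etfb and Acadl had a range, the highest minus the lowest clone in log2 CPM, of 1.99, 1.66, 1.12 and 1.10. The others had ranges of 0.89 for Cpt1a, 0.74 for Cpt2, 0.64 for Acadm, 0.62 for Cpt1c, 0.44 for Hadha and 0.32 for Hadhb. A range of 1 or more was thus met in 4 of the 10, against 35.3% of all genes tested, and the median range was 0.82 against 0.78 over all genes. As a list, the genes varied about as much as any others, with Hadhb more even than most genes (5.8% of tested genes had a range as small or smaller) and Cpt1b wider than most (92.0% had a range as small or smaller). All 10 differed between clones beyond counting noise (chi-square of counts against Poisson sampling, Benjamini-Hochberg adjusted over all genes), but so did 89.4% of all genes tested. There is no replicate library of any clone, so nothing below separates a stable difference between clones from a difference between these cultures or libraries, and p-values between clones cannot be given.

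**Figure D1:**
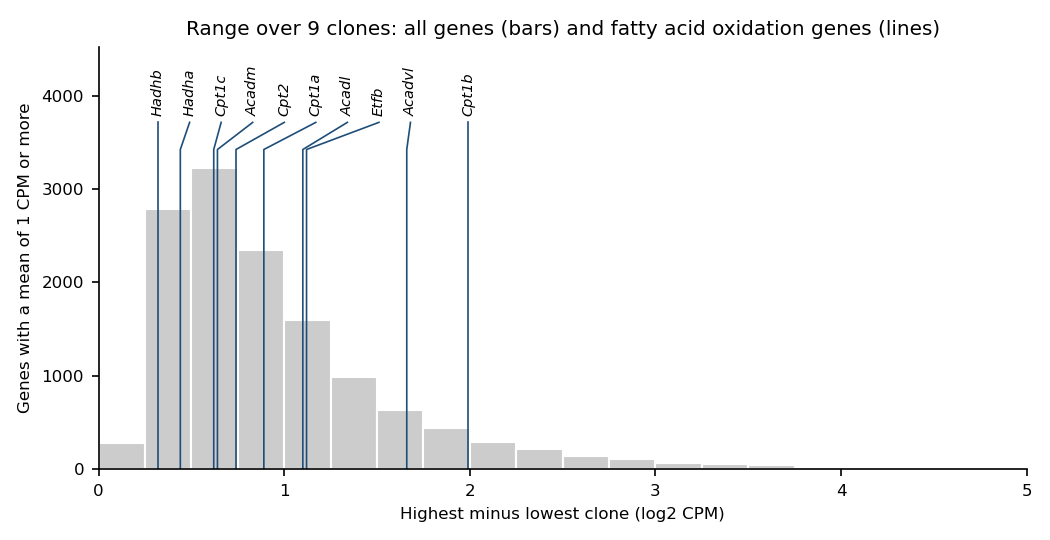
The horizontal axis gives the highest minus the lowest of 9 clones in log2 CPM, bars count the genes that averaged 1 CPM or more in steps of 0.25, and lines mark the 10 fatty acid oxidation genes. The lines spread from 0.32 (Hadhb) to 1.99 (Cpt1b) on either side of the median of all genes, 0.78.

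**Figure D2:**
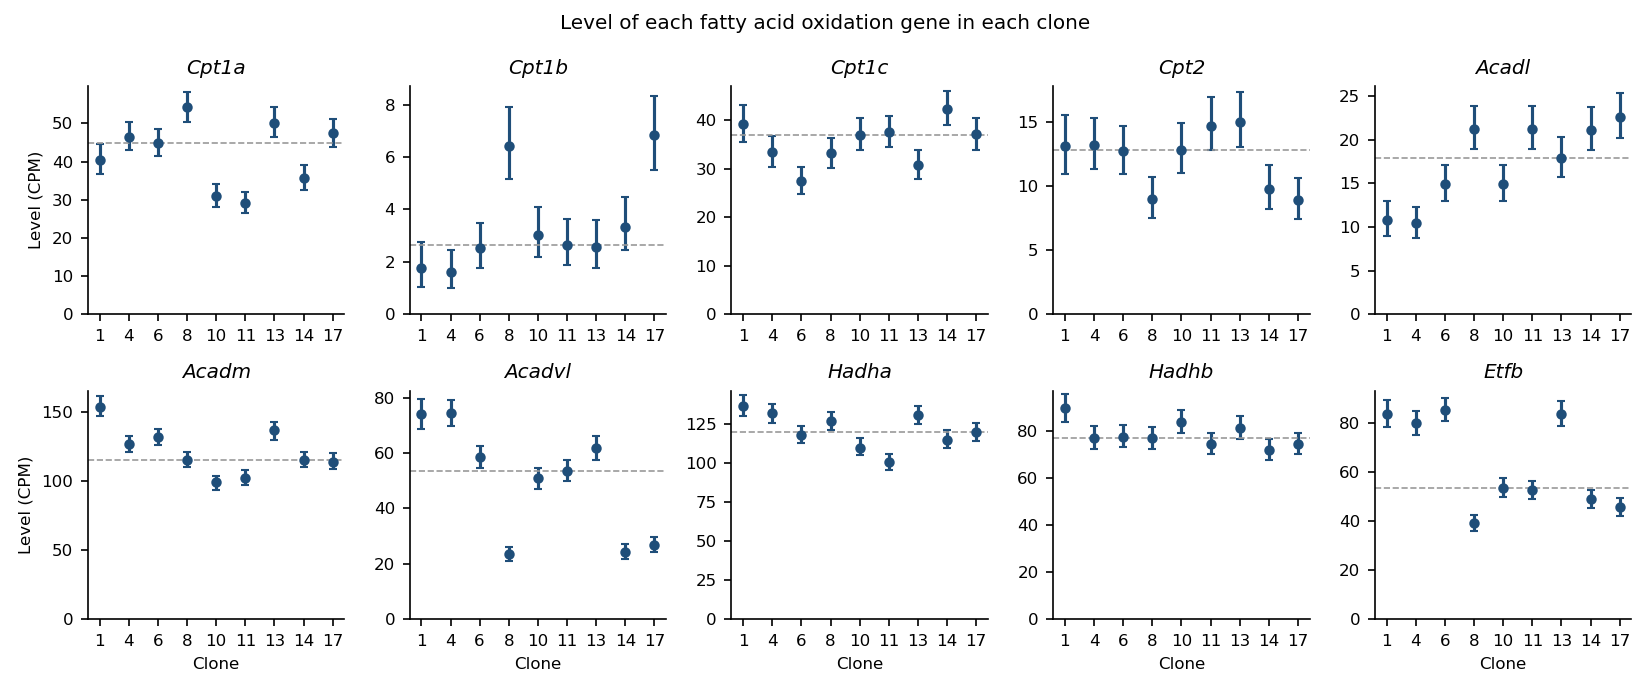
Each panel gives the level of a gene in CPM, from 0, in each clone, with exact 95% Poisson intervals that cover counting error only, and a dashed line at the median over clones. Acadvl is low in clones 8, 14 and 17, Cpt1b is high in clones 8 and 17, Etfb is high in clones 1, 4, 6 and 13, and Hadha and Hadhb stay close to their medians.

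The carnitine palmitoyltransferases did not share an order of clones. Cpt1a (chromosome 19, 3322334 to 3385733, GRCm38), the form found in liver and most other tissues, was at 40.5, 46.5, 44.9, 54.2, 30.9, 29.2, 50.2, 35.7 and 47.4 CPM for clones 1, 4, 6, 8, 10, 11, 13, 14 and 17. Clones 10 and 11 lay lowest, followed by clone 14, and clone 8 highest, 1.85-fold above clone 11 (exact 95% interval 1.64 to 2.10, counting error only, as for all intervals below). In the order of levels, only the step from clone 10 to clone 14 had an interval that left out a ratio of 1 (1.01 to 1.32). For every gene, such steps were taken after the clones were sorted by the same counts. They were not corrected for their number and describe the order only. The fibroblast markers, a type that serum cultures can hold, summed to their highest level in clone 11, 52.8 CPM, against 1.87 CPM (clone 14). Their collagen gene Col1a1 was at 33.4 and 42.5 CPM for clones 10 and 11 and at most 7.17 CPM otherwise, and Col1a2 had 8.76 and 7.90 CPM there against at most 1.45 CPM. Pdgfra did not follow, with 1.88 and 1.33 CPM there and 2.34 CPM at most, in clone 6. Dcn, Lum and Postn stayed at or below 0.629, 0.0762 and 0.489 CPM. Of the stem cell markers, Esrrb was lowest in clones 10 and 11 (382 and 369 CPM, at least 562 CPM otherwise). So was Dppa5a (999 and 982 CPM, at least 1443 CPM otherwise), and by smaller steps Pou5f1, Sox2 and Nanog. Zfp42, Klf4 and Utf1 did not follow in both clones. Zfp42 had 710 and 488 CPM there and 661 CPM in clone 13. Klf4 had 58.1 and 82.7 CPM there and 77.4 CPM in clone 4, and Utf1 had 120 and 150 CPM there and 96.1 CPM in clone 8. The part of these differences in the Cpt1a levels was not tested, and in bulk RNA fewer cells of a type and less RNA per cell cannot be told apart.

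Cpt1c (chromosome 7, 44959372 to 44974851), known from the brain and placed in the endoplasmic reticulum rather than the mitochondrion, ran more evenly, from 27.5 CPM (clone 6) through a median of 37.0 CPM to 42.4 CPM (clone 14). No step between clones neighbouring in the order had an interval that left out 1, and the extremes differed 1.54-fold (1.36 to 1.76). Of 8 neuronal markers 5 reached 1 CPM in a clone, with a summed level of 171 CPM (clone 8) to 262 CPM (clone 4). Tubb3 and Stmn2 made up most of it, at 96.5 to 135 and 38.4 to 123 CPM, while Rbfox3, Snap25 and Dcx stayed at or below 0.838, 0.577 and 0.348 CPM. The clone with most Cpt1c, clone 14, was not the clone with most of these markers, whose part in the Cpt1c levels was not tested.

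Cpt1b (chromosome 15, 89416405 to 89425863), the muscle form, was scarce, with 18 to 95 estimated counts per library. Its level was 1.76, 1.60, 2.51, 6.42, 3.04, 2.66, 2.57, 3.32 and 6.83 CPM for clones 1, 4, 6, 8, 10, 11, 13, 14 and 17. Clones 8 and 17 stood above the other 7, at 4.26-fold from clone 4 to clone 17 (2.64 to 7.20), and the step from clone 14 to clone 8 was the only one between neighbours whose interval left out 1. Clone 14, which resembles clones 8 and 17 in Acadvl below, did not share their Cpt1b level. The full-length coding transcript Cpt1b-201 held 86.3 to 96.6% of the gene's counts in every clone and by itself gave a range of 1.87. Chkb, choline kinase beta, which lies 496 bases away on the same strand, was at 12.0 and 12.7 CPM for clones 8 and 17 and at 6.57 to 11.7 CPM otherwise. Another gene model on the same strand, Gm44502, shares 2744 of the 3372 exonic bases of Cpt1b and was given 8 counts over all clones.

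Muscle markers were read beside Cpt1b. Of 11 markers 7 reached 1 CPM in a clone, and their sum ran from 90.4 CPM (clone 10) to 172 CPM (clone 17), most of it from the myosin light chain gene Mylpf at 132, 127 and 161 CPM for clones 8, 14 and 17 and 53.5 to 90.3 CPM otherwise. The myosin heavy chain genes Myh3 and Myh6 were low in clones 8, 14 and 17, where Myh3 had 0.646, 1.18 and 1.08 CPM and Myh6 5.06, 9.05 and 5.59 CPM, against at least 7.76 and 14.7 CPM in the other 6. Myog and Myod1, which define the lineage, and Ckm, the creatine kinase of differentiated muscle, were at most at 0.279, 0.349 and 0.878 CPM.

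Levels of different genes can be set side by side only per transcript length, in TPM (transcript abundance corrected for length, with the same total in each library). On that scale, summed over transcripts, Cpt1c was above Cpt1a in 8 of 9 clones. The order rested on the sum: Cpt1c-201 held 66.5 to 84.4% of the Cpt1c counts, the rest going to other coding and retained-intron transcripts, while Cpt1a has 1 transcript. With the main transcript of each gene alone, an alternative chosen after the values were seen, Cpt1c was above Cpt1a in 4 clones (1, 10, 11 and 14) and below it in 5. Over all transcripts, Cpt1c made up 46.8 to 63.2% of the summed TPM of the 3 genes, Cpt1a 29.2 to 47.9% and Cpt1b 2.85 to 13.6%. The balance moved with the clone: in clones 10, 11 and 14 Cpt1a gave 29.8, 29.2 and 31.3% and Cpt1c 61.7, 62.8 and 63.2%, while in clone 6 they were nearly level at 47.9 and 46.8%. The ratio of Cpt1a to Cpt1c in TPM was 0.464 in clone 11 and 1.02 in clone 6. Cpt1b, the scarcest, reached 11.4 and 13.6% in clones 8 and 17.

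Cpt2 (chromosome 4, 107903981 to 107923610), the inner membrane enzyme that all long-chain substrates share, was at 13.1, 13.2, 12.7, 8.99, 12.8, 14.7, 15.0, 9.77 and 8.91 CPM for clones 1, 4, 6, 8, 10, 11, 13, 14 and 17. Clones 8, 14 and 17 thus lay below the other 6 without overlap, and the only step between neighbours whose interval left out 1 was that between clones 14 and 6. The extremes, clones 17 and 13, differed 1.69-fold (1.34 to 2.13). How many of all tested genes part clones 8, 14 and 17 from the others was not counted. Such a split is therefore not read as particular to Cpt2 or to other genes named here. Slc25a20, the translocase that carries acylcarnitine between CPT1 and CPT2, was more even, at 44.1 CPM (clone 10) to 65.3 CPM (clone 4).

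The dehydrogenases for different chain lengths did not keep step. Acadvl (chromosome 11, 70010183 to 70015411), which acts on very long chains, was at 74.1, 74.4, 58.5, 23.4, 50.9, 53.7, 61.7, 24.3 and 26.9 CPM for clones 1, 4, 6, 8, 10, 11, 13, 14 and 17. Clones 8, 14 and 17 formed a low set and clones 1 and 4 a high pair: the steps from clone 17 to clone 10 and from clone 13 to clone 1 were the 2 whose intervals left out 1. The highest clone was 3.19-fold above the lowest (2.81 to 3.63). The main coding transcript, Acadvl-202, held 81.0 to 92.5% of the counts in every clone. Exons of other Acadvl transcripts overlap Dvl2 on the opposite strand (1151 of 2686 exonic bases), and the sources used here do not say whether the quantification used strand. The main transcripts of the 2 genes share 0 bases, and Dvl2 itself had a range of 0.44.

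Acadl (chromosome 1, 66830839 to 66863277), the long-chain enzyme, was at 10.8, 10.4, 14.9, 21.2, 14.9, 21.2, 17.9, 21.1 and 22.6 CPM in the same clones. It opposed Acadvl only toward the ends of the order. Clones 1 and 4 were lowest here and highest in Acadvl, and clones 8, 14 and 17 were among the 4 highest here and the 3 lowest in Acadvl. The other 4 did not mirror each other. Clone 11 had Acadl at 21.2 CPM and Acadvl at its median of 53.7 CPM. Clones 10, 6 and 13 had 14.9, 14.9 and 17.9 CPM in Acadl and 50.9, 58.5 and 61.7 CPM in Acadvl, not a reversed order. The step from clone 1 to clone 10 was the only one between neighbours whose interval left out 1, and clones 17 and 4 differed 2.17-fold (1.77 to 2.67). The ratio of Acadvl to Acadl in TPM, chosen after the values were seen, was 1.04, 1.18 and 1.28 in clones 8, 14 and 17, 6.66 and 6.72 in clones 1 and 4, and 2.46 to 3.72 in the other 4.

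Acadm (chromosome 3, 153922357 to 153944632), which takes medium chains, was the most abundant of the 3 in every clone, with 66.5 to 80.0% of their summed TPM. It ranged from 99.0 CPM (clone 10) and 102 CPM (clone 11) through a median of 115 CPM to 154 CPM (clone 1), a 1.56-fold difference (1.45 to 1.68). Clones 8, 14 and 17, so low in Acadvl, lay at 115, 115 and 114 CPM, at or next to the median. Acads, the short-chain enzyme and no member of the 10, ran from 44.0 CPM (clone 10) to 67.9 CPM (clone 4).

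The sequence before the start sites of Acadvl and Acadl is shown because these genes ran in near-opposite order, and that of Etfb because it is another member with a range over 1. Each is the 250 bases before the RefSeq start (GRCm38.p6), 5′ to 3′ on the gene's strand. Capitals mark AGGTCA on either strand, the half-site of nuclear receptors such as the PPAR family that is known to drive this pathway. That motif was chosen after the values were seen.
Acadvl, chr11:70015429-70015678, minus strand: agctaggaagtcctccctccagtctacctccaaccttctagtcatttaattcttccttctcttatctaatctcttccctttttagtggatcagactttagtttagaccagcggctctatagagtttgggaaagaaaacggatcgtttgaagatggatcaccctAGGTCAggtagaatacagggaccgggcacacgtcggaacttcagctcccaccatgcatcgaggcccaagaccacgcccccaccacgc
Acadl, chr1:66863310-66863559, minus strand: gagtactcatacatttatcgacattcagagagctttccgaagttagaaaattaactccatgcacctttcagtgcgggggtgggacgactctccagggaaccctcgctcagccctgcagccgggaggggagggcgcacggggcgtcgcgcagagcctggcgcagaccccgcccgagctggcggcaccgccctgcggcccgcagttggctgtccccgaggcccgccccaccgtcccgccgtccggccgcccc
Etfb, chr7:43443822-43444071, plus strand: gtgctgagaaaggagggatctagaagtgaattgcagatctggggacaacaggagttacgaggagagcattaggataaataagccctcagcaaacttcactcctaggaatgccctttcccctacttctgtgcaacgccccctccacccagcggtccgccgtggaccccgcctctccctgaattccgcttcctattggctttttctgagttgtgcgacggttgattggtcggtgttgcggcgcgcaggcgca

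The 3 stretches differ in composition: Acadl has 68.0% G and C with 25 CpG dinucleotides, Etfb 55.6% with 14, and Acadvl 49.6% with 9. The half-site stood in 4 of the 9 members with a RefSeq promoter entry (Cpt1a, Cpt1c, Acadm and Acadvl) and in 16.3% of 32851 promoter windows of the same 300 bases. The full PPAR element, a direct repeat of the half-site with 1 base between, searched on either strand with up to 2 mismatches, stood in none of the 9 windows and in 3.86% of all. The element TCAAGGTCA of estrogen-related receptors (0.423% of all windows) and the E-box CACGTG (7.15%) were also in none of the 9. The PPAR and estrogen-related receptor elements overlap the half-site. These counts say only which letters stand in these windows.

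The median level of genes on the chromosome that carries Acadvl was also lower in the clones where Acadvl was low. The median of 1072 other tested genes on chromosome 11, relative to each gene's median over clones, lay at -0.40, -0.36 and -0.39 log2 units in clones 8, 14 and 17 and at 0.02 to 0.12 in the other 6. The 20 tested genes nearest to Acadvl lay at -0.53, -0.29 and -0.41 in those 3 clones. Acadvl lay at -1.20, -1.14 and -0.99, below both medians; what part the chromosome has in the Acadvl levels was not tested. Taking off the chromosome's median left a range of 1.14 of the 1.66. Dlg4, the nearest tested gene beyond its start (1530 bases away), was at 15.2, 17.1 and 15.0 CPM for clones 8, 14 and 17 and at 26.0 to 32.5 CPM otherwise. Dvl2, which overlaps Acadvl, had 101, 123 and 123 CPM there and 120 to 137 CPM otherwise, so that neighbours at the same locus were not equally low. For the chromosomes of the other members, the medians stayed between -0.02 and 0.01 log2 units in every clone.

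**Figure D3:**
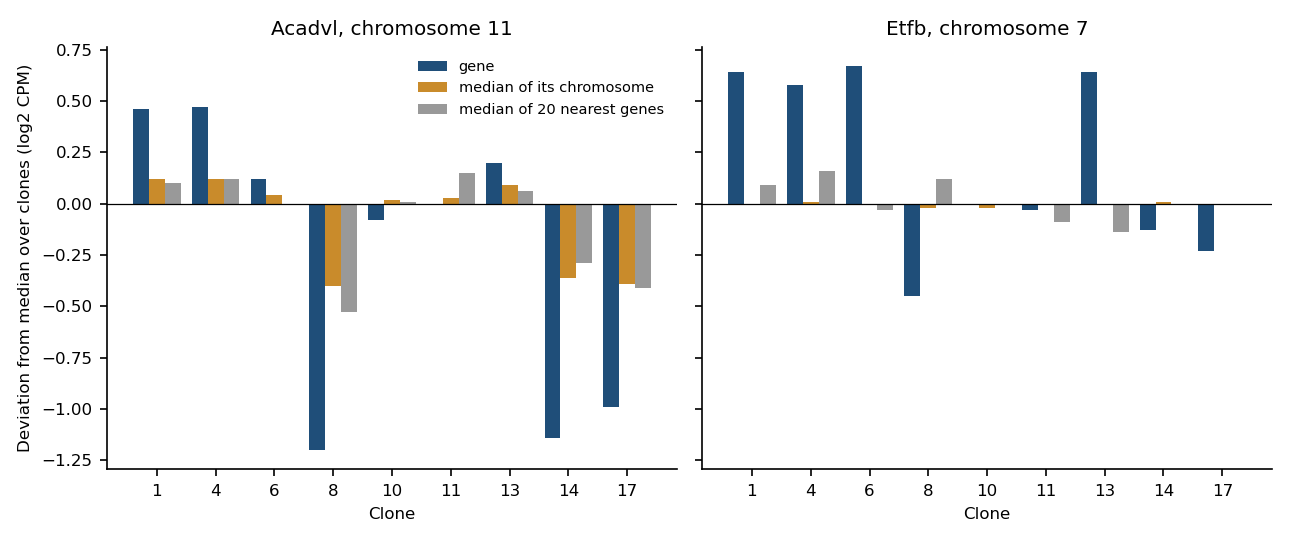
Bars give, in log2 CPM relative to the median over clones, the gene itself, the median of the other tested genes on its chromosome and the median of the 20 nearest tested genes, for each clone. For Acadvl all 3 bars are below 0 in clones 8, 14 and 17, with the gene lowest; for Etfb the chromosome bar stays near 0 in every clone.

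The trifunctional protein was the even part of the pathway. Hadha (chromosome 5, 30118304 to 30155162), its alpha subunit with the hydratase and dehydrogenase activities, was at 101 CPM (clone 11), 120 CPM at the median and 137 CPM (clone 1), a 1.36-fold difference (1.26 to 1.46). Hadhb (chromosome 5, 30155248 to 30184593), the beta subunit with the thiolase, was at 71.9 CPM (clone 14), 76.9 CPM at the median and 89.5 CPM (clone 1), 1.25-fold (1.14 to 1.36). Clone 1 was highest in both by CPM, and no step between neighbouring clones in the order of Hadhb had an interval that left out 1. The ratio of Hadha to Hadhb counts was 1.32 and 1.35 in clones 10 and 11 and 1.53 to 1.71 in the other 7, a range of 0.38 log2 units. In TPM it was 1.10 (clone 10) to 1.47 (clone 8). Most Hadha counts, 59.9 to 72.2%, were given to Hadha-201, annotated as a processed transcript, and 23.0 to 30.8% to the coding transcript Hadha-205.

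The 2 genes start back to back, and the stretch between them is shown because these genes, which varied so little, share it. It is 85 bases long between the GENCODE bounds of the genes, chr5:30155163-30155247 (GRCm38.p6, plus strand, toward Hadhb), with CpG dinucleotides in capitals. The RefSeq starts, 30154980 for Hadha and 30155253 for Hadhb, lie outside it, 273 bases apart.
Hadha-Hadhb: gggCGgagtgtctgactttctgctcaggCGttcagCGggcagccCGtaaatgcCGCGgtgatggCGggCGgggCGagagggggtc
It holds 9 CpG dinucleotides and 69.4% G and C.

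Within Hadhb, by contrast, the estimated use of transcripts differed between clones. Hadhb-203 and Hadhb-201 encode the same 1425 coding bases, and Hadhb-203 differs mainly in a first exon that ends 43 bases later. Of the counts given to the pair, Hadhb-203 took 37.1% in clone 8, 31.3% in clone 4, 31.0% in clone 13, 30.3% in clone 1, 23.1% in clone 6 and 21.9% in clone 17. It took only 9.73% in clone 14 (exact interval 7.84 to 11.9), 9.07% in clone 10 (7.41 to 10.9) and 4.96% in clone 11 (3.72 to 6.47). The low clones 10, 11 and 14 are the 3 that were also lowest in Cpt1a. These transcripts share 2005 of their 2033 and 2048 bases, so kallisto divided the reads on few bases. The intervals do not hold that uncertainty, and the comparison was chosen after the values were seen.

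Electron transfer varied in 1 subunit more than in the other. Etfb (chromosome 7, 43444083 to 43457800), the beta subunit of electron transfer flavoprotein, was at 83.5, 79.9, 85.2, 39.1, 53.5, 52.4, 83.6, 48.9 and 45.5 CPM for clones 1, 4, 6, 8, 10, 11, 13, 14 and 17. Clones 1, 4, 6 and 13 formed a high set between 79.9 and 85.2 CPM in which no neighbouring clones had an interval that left out 1, and the other 5 lay between 39.1 and 53.5 CPM. The steps from clone 10 to clone 4 and from clone 8 to clone 17 were those that left out 1. The extremes differed 2.18-fold (1.97 to 2.41), and the median of its chromosome stayed within the bounds above. Etfa, the alpha subunit, was at 33.2, 34.7, 53.9, 44.7, 44.1, 41.9, 57.0, 48.2 and 55.6 CPM in the same clones. Clones 1 and 4 were lowest in Etfa and high in Etfb, while clones 6 and 13 were high in both. The ratio of Etfa to Etfb counts therefore ran from 0.398 in clone 1 to 1.22 in clone 17, a range of 1.62 log2 units, wider than that of either gene (0.77 and 1.12). Counts are not corrected for length. In TPM the ratio was 0.266 in clone 1 and 0.816 in clone 17, with Etfa below Etfb in every clone. Etfdh, which passes the electrons on to ubiquinone, stayed between 21.5 CPM (clone 11) and 28.8 CPM (clone 8).

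**Figure D4:**
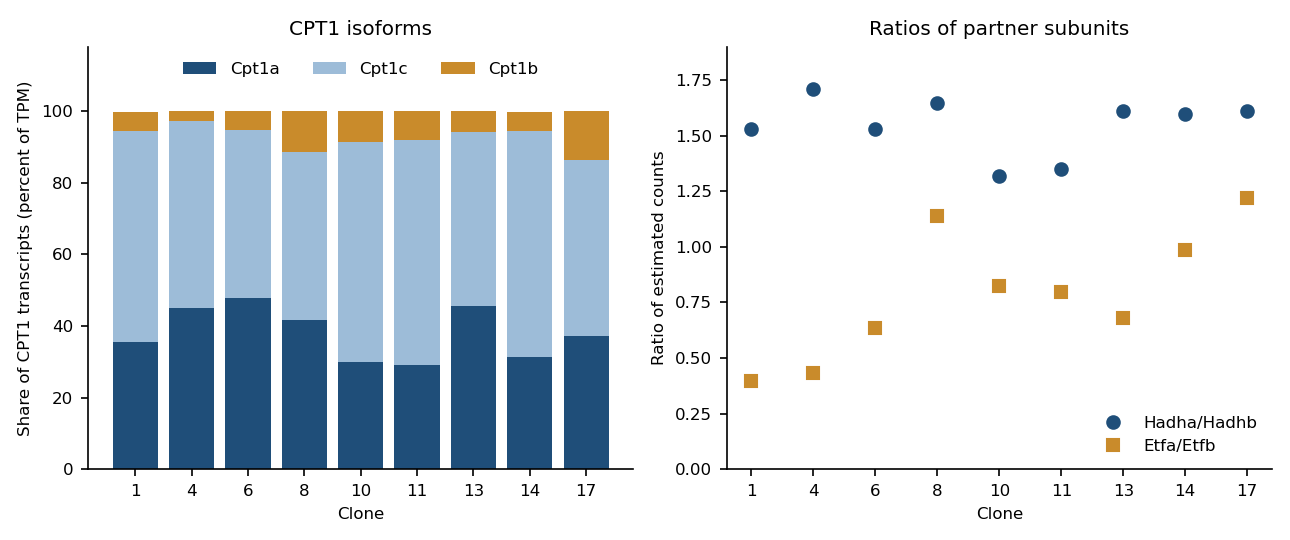
Left, the share of each CPT1 gene in their summed TPM, in percent, for each clone. Right, the ratio of estimated counts of Hadha to Hadhb and of Etfa to Etfb, from 0, where Hadha/Hadhb stays between 1.32 and 1.71 and Etfa/Etfb runs from 0.398 in clone 1 to 1.22 in clone 17. Counts are not corrected for length, so these ratios compare clones and not the levels of the 2 genes.

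Seen by clone, no clone was high or low throughout. Clone 1 was highest in 3 members (Acadm, Hadha, Hadhb) and above the median in 7 by CPM, and yet second lowest in Cpt1b and Acadl. By TPM the highest clone was 13 for Acadm and 4 for Hadha and Hadhb. Clone 13 was above the median in 7 members and lowest in none. Clone 14 was below the median in 6, among them Acadvl and Cpt2, and highest in Cpt1c. The median deviation over the 10 members lay between -0.08 in clone 14 and 0.14 in clones 1 and 13. The summed TPM of the 10 genes was 563 to 590 in clones 1, 4, 6 and 13 and 449 to 479 in clones 8, 10, 11, 14 and 17. Acadm and Etfb, with the highest mean TPM of the 10 genes (143 and 119), parted these clones without overlap, and no other member did.

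**Figure D5:**
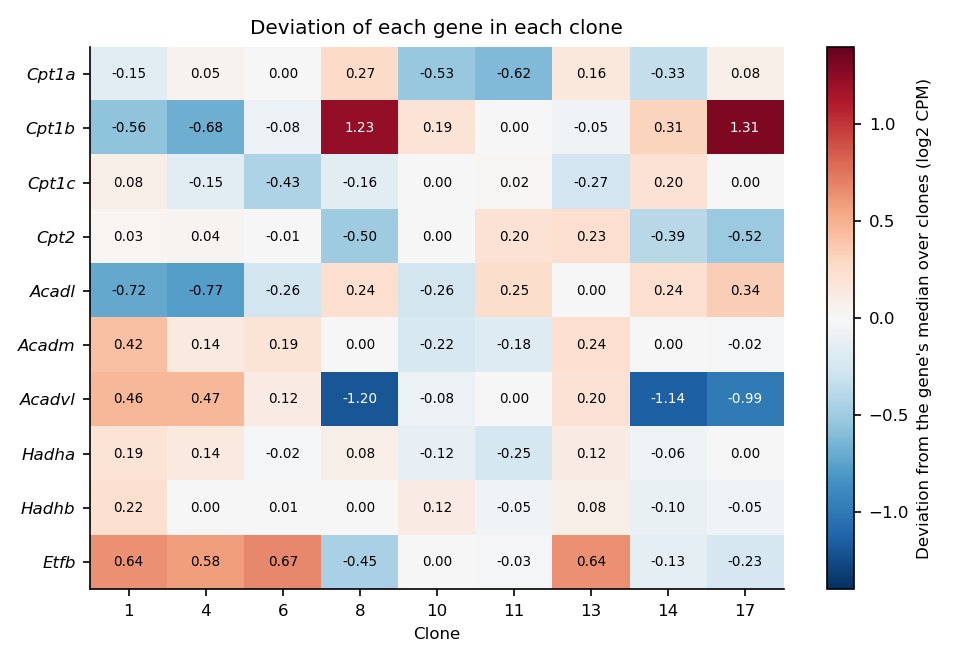
Each cell gives a gene's log2 CPM in a clone minus its median over the 9 clones, red above and blue below. The widest deviations are those of Cpt1b in clone 17 (1.31) and clone 8 (1.23) and of Acadvl in clone 8 (-1.20), and no column has a single colour.

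The wider pathway was read from 75 further genes in 8 lists, of which 64 averaged 1 CPM or more and 17 of these had a range of 1 or more, against 35.3% of all genes. Of 20 other genes of mitochondrial acyl-CoA breakdown, all passed 1 CPM and 4 had such a range: Acad12, Acad11, Pcca and, named after its value was seen, Acad10. Acad11, a dehydrogenase of long chains on chromosome 9, was at 24.3, 21.3 and 21.5 CPM for clones 8, 14 and 17 and at 29.8 to 52.7 CPM otherwise. Those clones were also lowest in Acadvl. Acad12 was at 2.90 CPM (clone 8) and 9.91 CPM (clone 1), but it is a close relative of Acad10 nearby, and their split of reads is uncertain. Pcca, a subunit of propionyl-CoA carboxylase, reached 19.4 CPM (clone 13) from 8.21 CPM (clone 10). Of the later steps, Echs1, an enoyl-CoA hydratase, ran from 52.2 to 72.9 CPM, Hadh, the short-chain hydroxyacyl-CoA dehydrogenase, from 78.6 to 94.0 CPM, and Acaa2, the medium-chain thiolase, from 35.8 to 59.1 CPM.

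Around the mitochondrial core, the carnitine transporter gene Slc22a5, on chromosome 11, was at 5.62, 4.87 and 4.51 CPM for clones 8, 14 and 17 and at 6.74 to 9.69 CPM otherwise, the only 1 of 4 carnitine genes with a range of 1 or more (Crat 0.47, Slc25a20 0.57). Of 12 peroxisomal genes that passed, 4 had such a range. Ehhadh, the peroxisomal bifunctional enzyme, ran from 4.31 CPM (clone 17) to 10.1 CPM (clone 1), and Acox3, an acyl-CoA oxidase, from 12.1 CPM (clone 10) to 27.4 CPM (clone 8). Acaa1b, at 0.794 to 3.15 CPM, may share reads with its near-copy Acaa1a and is uncertain, and Amacr, a racemase named after its value was seen, ran from 11.6 to 25.8 CPM. Neither electron transfer partner and none of the 3 genes of malonyl-CoA control reached a range of 1. Acaca, the main acetyl-CoA carboxylase, was at 154 CPM (clone 17) to 226 CPM (clone 11), Acacb, the form tied to CPT1, at 15.7 CPM (clone 11) to 30.0 CPM (clone 6), and Mlycd, which breaks malonyl-CoA down, at 1.61 CPM (clone 11) to 3.06 CPM (clone 14). For Mlycd, clones 13, 6 and 4 were at 1.66, 1.67 and 1.68 CPM, a difference from clone 11 that was not detectable at this depth.

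Of the ketone body genes Oxct1, which lets cells use ketones, ran from 75.3 CPM (clone 4) to 158 CPM (clone 8), with Bdh1 at a range of 0.81. Among the regulators, the receptor gene Ppara ran from 0.0699 CPM (clone 11) to 0.743 CPM (clone 13). Its mean of 0.362 CPM was under 1 CPM, and clone 11 lay below the 0.210 CPM that 3 counts stand for there. The coactivator gene Ppargc1a stayed at or below 0.152 CPM, where 3 counts stand for 0.209 to 0.293 CPM. The receptor genes Ppard and Esrra were above 1 CPM in every clone. Ppard was at 8.39 CPM (clone 4) to 15.4 CPM (clone 14) and Esrra at 10.1 CPM (clone 8) to 17.1 CPM (clone 1). Of 14 regulators that passed, 4 had a range of 1 or more. Ppargc1b, a coactivator, was at 6.68 CPM (clone 17) and 1.75 to 3.72 CPM otherwise, Nrip1, a corepressor of nuclear receptors, at a range of 1.51 with the lowest level, 6.94 CPM, in clone 4 and the highest in clone 11, and Hnf4a at 0.349 CPM (clone 11) to 3.02 CPM (clone 13). The fourth, Rxrg, ran from 0.628 to 1.87 CPM and was named after its value was seen. Of 12 known PPAR targets 6 passed and 3 had a range of 1 or more. Pdk4 ran from 3.26 CPM (clone 13) to 8.34 CPM (clone 14) and Ucp2 from 17.8 CPM (clone 10) to 37.8 CPM (clone 6). Acot1, at 4.73 to 13.7 CPM, has a near-copy in Acot2 with which reads may be shared, and is uncertain, and Fabp1 and Cyp4a10 had no count in any clone. Liver and brown fat markers were nearly absent, with 1 of 6 and 0 of 3 at 1 CPM in any clone and sums of at most 3.63 and 1.60 CPM.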

How the data were processed

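RNA of 9 clones went into TruSeq Stranded mRNA libraries, per the labels' protocols. The submitters' processing notes name CASAVA 1.8, FastQC, Trimmomatic 0.33, kallisto 0.43.1 and the builds mm10 and GRCm38; the sources used here do not give the transcript release. Each deposited table gives estimated counts and TPM for 115270 transcripts, both as the authors' tool wrote them. Of these, 98.53% had their identifier in GENCODE M21, by which they were summed per gene. The unmatched held 0.641 to 0.773% of the counts.

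Levels are CPM with TMM factors (edgeR 4.0.16, R 4.3.3) from genes averaging 1 CPM or more. Ranges use log2 CPM with a prior count of 2. Counts were rounded for the counting-noise test and for exact 95% intervals (Clopper-Pearson for ratios and shares), which cover counting error only. No clone has a group, so no test between groups was made. Range, intervals and noise test were tested on simulated data. The members, lists and naming rule were chosen with earlier results of these data known. The rule named all members, the 3 widest-ranging genes of each list, set pathway genes, and the 4 most alike profiles of the 3 widest members. Alternatives were median-ratio size factors (DESeq2 1.42.0), log2(TPM + 1), a prior count of 0.5, a minimum of 5 CPM or none, the main transcript alone and each clone left out. Promoter sequences are from RefSeq (GRCm38.p6): 9 members matched, and Cpt1b is named only. Python 3.11.15, numpy 2.4.6, pandas 2.3.3, scipy 1.17.1 and matplotlib 3.10.9 were used.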

Additional observations from a re-analysis of the deposited data

Results flagged for a closer look

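Acaa2, the mitochondrial medium-chain thiolase, was highest in clone 4, at 59.1 CPM, and lay between 35.8 and 43.6 CPM in the 8 others. The gap between clone 4 and the next clone was 0.609 of the whole range in log2 CPM, above the 95% critical value of Dixon's ratio for 9 values. It was the only 1 of 63 values checked for a clone far from the others, and such a check marks about 1 in 20 by chance.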

How the results depend on the processing

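The median range of the members was 0.76 to 0.85 and the number with a range of 1 or more 3 or 4 under every alternative run. The number was 3 with a minimum of 5 CPM, which removes Cpt1b, and without clone 8, where Etfb had 0.91. The share of all genes with a range of 1 or more was 23.2% with a minimum of 5 CPM. With the main transcript alone, the range of the Hadha to Hadhb ratio was 0.99 and that of Hadhb 0.63, since Hadhb-201 alone leaves out the counts given to Hadhb-203. The range of Acadvl was 1.42 with log2(TPM + 1), that of Acadm 0.47 without clone 1 and that of Hadha 0.31 without clone 11. On the TPM scale the median of all genes shifted by -0.10 log2 units in clone 1 and 0.11 in clone 11, and 4 of 10 members kept their highest clone and 8 their lowest. The median Cpt1c share of CPT1 TPM was 52.1% over all transcripts and 47.5% with the main transcripts alone, and Cpt1c was above Cpt1a in 8 and 4 clones. Alternatives for the noise test, the ratios, the CPT1 shares and order and the chromosome median were chosen after seeing the data. No paired analysis was possible because the clones have no groups. Depth limits Cpt1b most, at 18 to 95 counts per library.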

Other observations

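For the 3 members with the widest range, the protein-coding genes with the most similar profile over the 9 clones were sought among 12822 by the root mean square difference of log2 CPM, each gene centred on its mean. For Acadvl these were Castor1, Ppp1r9b, Col6a4 and Arhgap44, at differences of 0.133 to 0.150 against the 0.641 by which Acadvl itself varied about its mean. Castor1, Ppp1r9b and Arhgap44 lie on chromosome 11, as Acadvl does, and Col6a4 on chromosome 9. Ppp1r9b was at 24.1, 33.5 and 26.8 CPM for clones 8, 14 and 17 and at 56.8 to 83.3 CPM otherwise.

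For Etfb they were Ppdpf, Ppm1h, Atp9a and Mrm1, at 0.104 to 0.112 against 0.417, and none lies on chromosome 7. Mrm1 lies on chromosome 11, whose median was lower in clones 8, 14 and 17, Ppdpf and Atp9a on chromosome 2 and Ppm1h on chromosome 10. Atp9a was at 51.6, 43.5, 45.5 and 47.7 CPM for clones 1, 4, 6 and 13 and at most at 28.2 CPM in the other 5. For Cpt1b they were Fignl2, Hrk, Fam196a and Spry4, at 0.197 to 0.221 against 0.653. Spry4 was at 286, 235 and 340 CPM for clones 8, 14 and 17 and at 116 to 158 CPM otherwise, and so was high in clone 14 too, where Cpt1b was at 3.32 CPM. The profiles come from the same 9 libraries, in which some clones resemble each other in many genes, so that nearness of profiles is given as a description.

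Next to Etfb, Siglecf was at 3.51, 2.52, 2.86 and 3.40 CPM for clones 1, 4, 6 and 13 and between 0.144 and 1.52 CPM in the 5 others, the same split of clones by level as Etfb. No counting interval was worked out for these low levels. Siglecf lies 84551 bases away and was noticed after its values were seen. Vsig10l, the nearest tested gene on the other side, did not share that split, with 1.60 CPM (clone 4) and 2.71 CPM (clone 8).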
